A study of Mus musculus with 12 samples.

Results

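Transcripts of steroid hormone synthesis were examined in mouse embryonic kidney through 10 genes best known from the adrenal cortex and the gonad: Akr1b7, Cyp11a1, Cyp11b1, Cyp17a1, Cyp21a1, Star, Nr5a1, Mc2r, Fdx1 and Hsd3b1. They were chosen by name, with earlier results of these data known. Every non-control probe with a RefSeq accession of any of them was read. This gave 13 probes of 9 genes, out of 17305 genes named on the array. No probe was matched to Cyp11b1, which is not analysed here. The study compared kidneys at embryonic day 14.5 from embryos null for Bdkrb2, the gene of the bradykinin B2 receptor, with kidneys from wild-type (WT) embryos. Both genotypes had a C57BL/6 genetic background and heterozygous parents, and all mothers were heterozygous animals on food with 5% sodium, so high maternal salt was shared by both groups. RNA of both genotypes was labelled from 0.5 µg each and hybridised together on 12 two-colour arrays. In the null/WT orientation null RNA carried the red dye Cy5 and WT RNA the green dye Cy3, and in the WT/null orientation the reverse. Each orientation had 3 replicates of 2 arrays, and all 4 arrays of a replicate number lay on 1 of 3 slides. The labels do not say whether a sample was 1 embryo or a pool, nor whether both orientations of a number used the same extracts, so p-values measure only the spread between these samples, which may be technical.

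Steroid-producing cells make their hormones from cholesterol. The Star protein brings cholesterol into the mitochondrion, where the side-chain cleavage enzyme encoded by Cyp11a1 turns it into pregnenolone with electrons passed on by ferredoxin, the product of Fdx1. The enzymes of Hsd3b1, Cyp17a1, Cyp21a1 and Cyp11b1 convert pregnenolone into progesterone, androgens and corticosteroids. Nr5a1 encodes steroidogenic factor 1, a nuclear receptor that activates many of these genes, and Mc2r encodes the receptor for corticotropin. Akr1b7 encodes an aldo-keto reductase that detoxifies a by-product of side-chain cleavage, and it is also known from renin cells of the kidney.

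In both genotypes Akr1b7, Mc2r and Fdx1 were detected in every channel, Cyp17a1, Star and Nr5a1 in part of the channels, and Cyp11a1, Hsd3b1 and Cyp21a1 in at most 1 of 24. No tested member passed the threshold between null and WT kidneys with duplicate arrays averaged. Akr1b7 had the highest value, a log2 null over WT of 0.31 ± 0.07 (SE, n = 6 replicates), above 0 in 5 of 6 replicates (95% interval 0.14 to 0.49, limma adjusted p = 0.453). With the replicate number as a block its limma adjusted p was 0.904. Akr1b7 passed only when all 12 arrays were fitted with duplicates as a random block (limma adjusted p = 0.0318). Such a fit counts technical duplicate arrays towards precision, with the same correlation of 0.707 for all probes and no term for the slide. Over all tested probes, 148 passed in that fit, against 9 with duplicates averaged. The 3 probes of Fdx1 stood between -0.01 and 0.01, and between 0.18 and 0.20 with median centring, which moved the median of all tested probes from -0.01 to 0.14.

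Promoter sequence was used for 4 members from RefSeq (GRCm38.p6), as windows of 300 bases with 250 before and 50 after a start site. It is printed here for the detected genes Akr1b7 and Fdx1 and for Cyp11a1 and Hsd3b1, which were detected in at most 1 channel. Both kinds are compared here for these genes only. Mc2r, also detected in every channel, was left out of the promoter comparison, which therefore does not cover all detected members. The remaining members were not used either. Capitals mark matches on either strand to 3 forms of the short nuclear receptor motif that steroidogenic factor 1 binds. The first form searched was AGGTCA. The second form, which can overlap the first by all but a single letter, was AAGGTC. The third form searched, on both strands like the others, was AAGGCC. For Cyp11a1 the window at the more downstream of its listed start sites is shown.
Akr1b7, chr6:34412112-34412411, plus strand: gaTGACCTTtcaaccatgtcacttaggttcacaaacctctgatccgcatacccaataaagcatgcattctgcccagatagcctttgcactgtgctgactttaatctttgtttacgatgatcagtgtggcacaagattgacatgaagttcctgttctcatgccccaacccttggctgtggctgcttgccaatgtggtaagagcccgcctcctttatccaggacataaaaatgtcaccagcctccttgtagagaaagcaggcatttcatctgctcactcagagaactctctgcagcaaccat
Fdx1, chr9:51963553-51963852, minus strand: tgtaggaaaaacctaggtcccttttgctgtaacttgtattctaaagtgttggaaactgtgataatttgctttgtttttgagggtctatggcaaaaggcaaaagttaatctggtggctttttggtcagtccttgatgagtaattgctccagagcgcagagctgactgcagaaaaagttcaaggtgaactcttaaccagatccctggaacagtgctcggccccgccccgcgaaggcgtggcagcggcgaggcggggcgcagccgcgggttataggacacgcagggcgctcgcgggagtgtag
Cyp11a1, chr9:58014702-58015001, plus strand: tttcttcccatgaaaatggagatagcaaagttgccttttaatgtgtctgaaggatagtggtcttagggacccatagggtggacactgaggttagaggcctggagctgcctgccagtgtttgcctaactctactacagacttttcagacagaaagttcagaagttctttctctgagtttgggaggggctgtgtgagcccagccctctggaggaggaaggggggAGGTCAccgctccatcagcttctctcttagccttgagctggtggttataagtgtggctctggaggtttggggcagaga
Hsd3b1, chr3:98859745-98860044, minus strand: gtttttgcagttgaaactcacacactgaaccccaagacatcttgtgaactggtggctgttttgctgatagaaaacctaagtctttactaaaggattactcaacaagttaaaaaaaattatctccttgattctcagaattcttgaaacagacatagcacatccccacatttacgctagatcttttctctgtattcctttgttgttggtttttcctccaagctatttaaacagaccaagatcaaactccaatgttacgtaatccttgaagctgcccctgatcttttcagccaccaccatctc
In the Akr1b7 window the capitals are overlapping matches to the first and second forms on the minus strand, at positions -248 and -247 from the start site. In the Cyp11a1 window they are a match to the first form on the plus strand at position -28. The Fdx1 and Hsd3b1 windows, and the other Cyp11a1 window at chr9:57997774-57998073, held 0 matches. Over 32851 promoter windows of this length, 16.3% held the first form, 12.3% the second form, 16.5% the third form and 35.5% at least 1 of them. A match is a description of letters and not of binding.

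Between 41.2% and 59.0% of non-control spots passed the scanner software's test for signal well above background (here called detected) for the green dye and between 51.1% and 60.0% for the red one. All 4 arrays of slide 3 had wider log2 ratios than the 8 arrays of slides 1 and 2. The SD was 0.38 on the first array of WT/null replicate 3, 0.25 to 0.26 on the other arrays of that slide and 0.16 to 0.20 on slides 1 and 2. Of 8 kidney markers, 7 were detected widely enough to be tested (Six2, Pax2, Wt1, Lhx1, Foxd1, Nphs1 and Cdh16), with 0 past the threshold, and Ret was detected in 1 WT and 0 null channels. Xist was detected in all null channels of all 3 slides and in the 4 WT channels of slide 1, but in 0 WT channels of slides 2 and 3. The Y-linked Ddx3y, Kdm5d and Eif2s3y were detected in the 4 WT channels of slides 2 and 3 and in 0 others. Sex transcripts therefore differed between genotypes on slides 2 and 3, and their part in the values that follow was not tested.

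The first comparison concerns which of these probes were detected. Whether a probe also binds transcripts of related genes, such as the relatives of Akr1b7, was not checked. Akr1b7 (probe A_51_P331288), Mc2r (A_51_P268687) and Fdx1 by each of 3 probes were detected in 12 null and 12 WT channels. Cyp17a1 (A_51_P116813) was detected in 9 null and 9 WT channels. Nr5a1 (A_52_P616265) was detected in 8 null and 7 WT channels. No member probe was saturated in either genotype. For Star, probe A_51_P274436 was detected in 9 null and 9 WT channels and probe A_52_P165654 in 6 and 3. Detection of these probes in null also differed by dye. Cyp17a1 and Star A_51_P274436 each passed in 6 Cy5 and 3 Cy3 null channels, and in 4 Cy5 and 5 Cy3 WT channels. Star A_52_P165654 passed in 5 Cy5 and 1 Cy3 null channels, and in 2 and 1 WT channels. Detection was lowest on slide 3, where Cyp17a1 passed in 2 of 4 null and 2 of 4 WT channels, Nr5a1 in 1 and 1, and Star by its first probe in 2 and 1.

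The enzymes themselves were mostly not detected. For Cyp11a1, the side-chain cleavage enzyme, probe A_51_P309727 passed in 1 WT channel and 0 null channels and probe A_51_P309733 in 0 of 24. Hsd3b1 (A_51_P421418), the gene of the enzyme that makes progesterone from pregnenolone, passed in 1 WT channel and 0 null channels. Cyp21a1 (A_52_P594116), whose enzyme leads to corticosteroids, passed in 0 of 24. The single detections were both on slide 2 in Cy5. A lower bound on the fold came out below 1 for Cyp11a1 and Hsd3b1, so no fold is given, and a difference in these 3 genes was not detectable on these arrays.

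**Figure D1:**
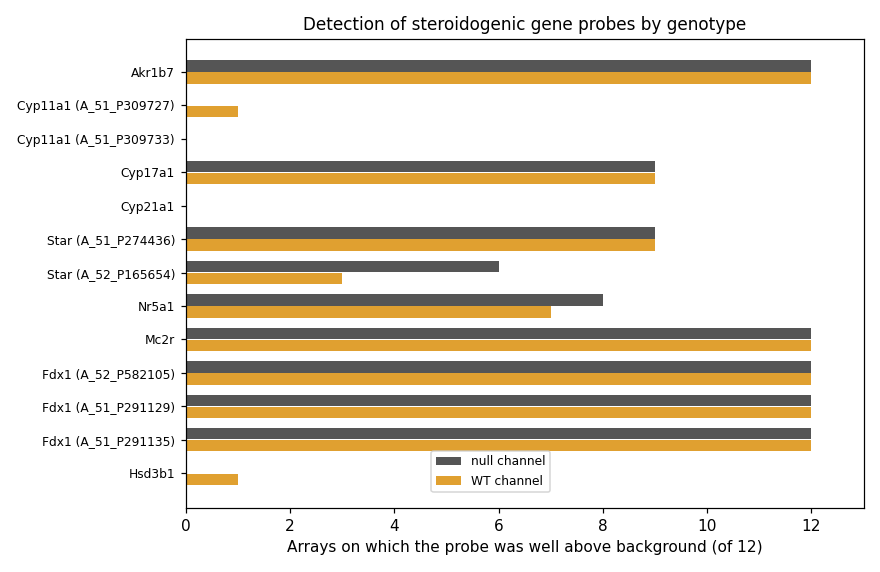
Number of arrays, of 12, on which each of the 13 probes was well above background (x axis), in the null channel (dark grey bars) and the WT channel (orange bars). Akr1b7, Mc2r and Fdx1 reach 12 in both, Cyp17a1, Star and Nr5a1 lie between 3 and 9, and Cyp11a1, Cyp21a1 and Hsd3b1 at 0 or 1.

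Markers of neighbouring tissue were read the same way. Of 7 further fetal adrenal cortex genes, 4 were tested, all below 0 (median -0.05) with 0 past the threshold, and their summed signal was 4099 to 4416 over the null replicates and 4085 to 4703 over the WT replicates. The 4 were Akr1c18, Scarb1, Fdxr and Inha, each detected in 12 null and 12 WT channels by its brightest probe. Mrap, the partner of the corticotropin receptor, and Cyp11b2 were detected in 0 of 24 channels, and Nr0b1 in 2 WT and 0 null channels. Of 10 chromaffin cell genes, 7 were tested and 0 passed, with summed signals of 1661 to 1989 over the null replicates and 1619 to 1980 over the WT replicates. The defining chromaffin genes Th and Dbh were detected in 0 of 24 channels. Of 7 fetal testis genes, 3 were tested, Sox9, Dhh and Cyp17a1 itself, and 0 passed, with summed signals of 1936 to 2145 over the null replicates and 1701 to 2127 over the WT replicates. Amh and Dmrt1, of Sertoli cells, and Hsd17b3 were detected in 0 of 24, as were Foxl2, Gata4 and Lhx9 among the ovary and gonad genes. That list had 2 of 5 genes tested, with 0 past the threshold. They were Amhr2, detected in 12 null and 12 WT channels, and Fst, in 7 and 6. Kidney also expresses Scarb1, Fdxr, Ddc, Sox9 and Fst, so the sums above are not particular to neighbouring tissue. Of 4 germ cell genes 0 were tested, and Ddx4 alone was detected at all, in 3 WT channels.

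The second comparison concerns null against WT kidneys. A probe entered the fit when either genotype was detected on 6 or more of the 12 arrays, as 55.8% of all probes were. This kept 9 member probes of 6 genes. Cyp17a1, Nr5a1 and the Star probes A_51_P274436 and A_52_P165654 were dim, with mean log2 signals of 6.56, 6.43, 6.45 and 6.33. The untested Hsd3b1 stood at 6.31. With no offset in the background correction, these dim tested probes lay farther from 0, at 0.25, -0.04, -0.15 and -0.12. Their ratios near 0 therefore do not show equal expression. In bulk RNA, fewer cells of a type and less RNA per cell cannot be told apart. At a limma adjusted p under 0.05, 0 of 9 member probes passed, where 0.0392% of all tested probes did. At an unadjusted p under 0.05 the count was 1 of 9 (Akr1b7, higher in null), against 7.01% of all tested probes, or 4.41% counting those higher in null. With the replicate number as a block, 0 of 9 passed the adjusted threshold against 0.0174%, and 1 of 9 the unadjusted one against 3.3%. No member probe had one sign in all 6 replicates, as 2.92% of tested probes did, and so none was above 0 in all 6, as 1.5% were. By the brightest probe, 4 of 6 member genes were above 0 and 2 below with a median of 0.04, and over 12647 tested genes the median was -0.00 with 48.1% above 0.

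Neither regulator passed. Nr5a1, the gene of steroidogenic factor 1, had log2 ratios of 0.04, 0.04 and -0.07 in null/WT replicates 1, 2 and 3 and of -0.04, -0.01 and -0.08 in WT/null replicates 1, 2 and 3. The orientations overlapped, and the fitted value was -0.02 ± 0.04 (95% interval -0.11 to 0.07, limma adjusted p = 0.853). Mc2r, the corticotropin receptor gene, had ratios of 0.47, 0.18 and 0.19 in null/WT and -0.01, -0.35 and -0.06 in WT/null. All null/WT values were above 0 and all WT/null values below, so the sign followed the dye. The fitted value was 0.07 ± 0.06 (95% interval -0.07 to 0.21, limma adjusted p = 0.744), with 0.23, -0.08 and 0.06 on slides 1, 2 and 3. It was 0.20 with median centring. With 1 replicate left out it ran from 0.023 without null/WT replicate 1 to 0.12 without WT/null replicate 2.

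Star had ratios of -0.10, 0.05 and -0.15 in null/WT and 0.05, -0.05 and -0.12 in WT/null by probe A_51_P274436. The orientations overlapped, and the fitted value was -0.05 ± 0.05 (95% interval -0.16 to 0.05, limma adjusted p = 0.740). By probe A_52_P165654 the ratios were 0.03, 0.12 and 0.04 in null/WT and -0.11, -0.06 and -0.29 in WT/null. Here every null/WT value lay above 0 and every WT/null value below it, and the fitted value was -0.05 ± 0.04 (95% interval -0.15 to 0.06, limma adjusted p = 0.756). With the scanner software's processed signals the values were -0.22 for the first probe and 0.21 for the second, so the direction of Star is not settled.

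Fdx1, the electron donor of side-chain cleavage, had ratios of 0.18, 0.11 and 0.17 in null/WT and -0.18, -0.23 and -0.05 in WT/null by its brightest probe, A_52_P582105. The red channel was the brighter in all 6 replicates, whichever genotype it held. The fitted value was 0.00 ± 0.04 (95% interval -0.09 to 0.10, limma adjusted p = 0.998). Probe A_51_P291129 had ratios of 0.17, 0.21 and 0.24 in null/WT and -0.13, -0.29 and -0.13 in WT/null, with the same split by dye and a fitted value of 0.01 ± 0.04 (95% interval -0.08 to 0.11, limma adjusted p = 0.930). Probe A_51_P291135 had ratios of -0.01, -0.08 and 0.08 in null/WT and 0.10, -0.00 and -0.15 in WT/null, which overlapped, and a fitted value of -0.01 ± 0.05 (95% interval -0.12 to 0.10, limma adjusted p = 0.952). The log2 signal of this last probe varied from 7.52 to 9.70 over the null channels, while both channels of an array stayed close. The 3 probes share a target and are not replicates.

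Cyp17a1, whose enzyme leads towards androgens, had ratios of 0.16, 0.08 and -0.02 in null/WT and -0.06, 0.01 and 0.57 in WT/null. WT/null replicate 3 lay far above the other 5. Its arrays gave 0.83 and 0.32, and the probe was detected there in 0 of 2 null and 1 of 2 WT channels. The fitted value was 0.12 ± 0.08 (95% interval -0.06 to 0.31, limma adjusted p = 0.729), and without that replicate it was 0.023. With no offset in the background correction it was 0.25.

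Akr1b7 had ratios of 0.57, 0.40 and 0.75 in null/WT replicates 1, 2 and 3 and 0.08, -0.23 and 0.32 in WT/null replicates 1, 2 and 3. All null/WT values lay above all WT/null values, WT/null replicate 2 alone was below 0, and 10 of 12 arrays were above 0. Averaged over both orientations, the ratio was 0.32, 0.08 and 0.53 on slides 1, 2 and 3, lowest on slide 2 and highest on slide 3. Akr1b7 and Cyp17a1 were the 2 of 9 member probes above 0 on every slide, against 11.3% of tested probes. The fit gave a 1.24-fold higher signal in null kidneys (log2 0.31 ± 0.07, 95% interval 0.14 to 0.49, limma adjusted p = 0.453). Its rank by p among the 22978 tested probes was 148. The normalised log2 signal was 11.58 ± 0.17 in null and 11.26 ± 0.23 in WT (SD, n = 6), and single channels ran from 11.27 to 11.85 and from 10.99 to 11.67, so the genotypes overlapped.

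The call for Akr1b7 depended on how duplicate arrays were counted. With all 12 arrays and a random block for duplicates it passed (limma adjusted p = 0.0318). There the technical duplicates add to the precision, and the sharing of slides is not modelled. That fit passed 148 probes in all, against 9 with duplicates averaged. Over all 18 alternatives the limma adjusted p of Akr1b7 ran from 0.0318 to 0.953. With the replicate number as a block the interval of Akr1b7 was 0.10 to 0.52 (limma adjusted p = 0.904). Median centring moved the value to 0.51 and without slide 3 it was 0.20.

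**Figure D2:**
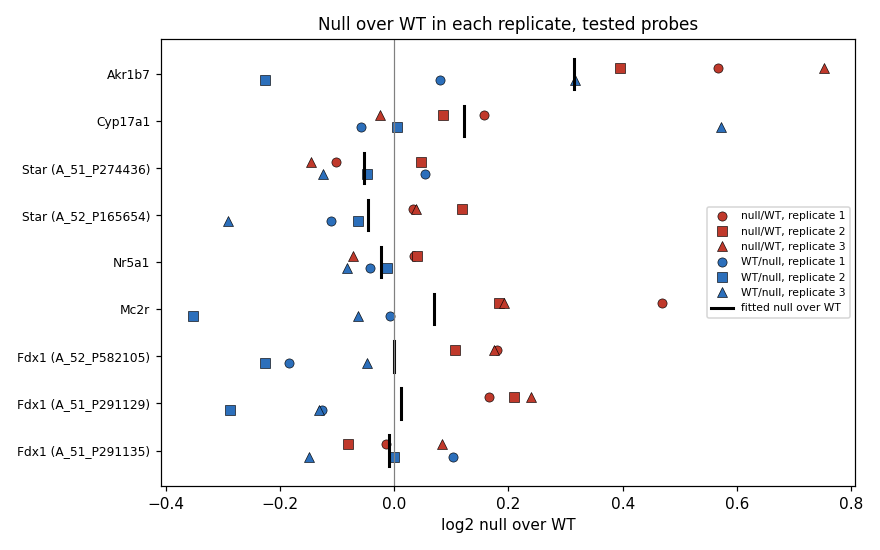
Log2 null over WT (x axis) of the 9 tested probes in each of the 6 replicates, coloured by dye orientation (red null/WT, blue WT/null) with circles, squares and triangles for replicates 1, 2 and 3 and a black bar for the fitted value. Akr1b7 has 5 of 6 points above 0, Mc2r and 2 Fdx1 probes split by colour around 0, and 1 Cyp17a1 point lies apart at 0.57.

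The dye therefore had to be estimated beside the genotype. The dye term, the part of the ratio that changes sign with the orientation, was 0.26 for Akr1b7, 0.21 for Mc2r, 0.15 for Fdx1 A_52_P582105 and 0.19 for Fdx1 A_51_P291129. It passed for 2 of 9 probes, both of Fdx1 (limma adjusted p = 0.0465 and 0.0216), against 13.5% of tested probes, or 8.05% in that direction. For Akr1b7 and Mc2r the limma adjusted p of the dye term was 0.0585 and 0.0580. The orientations did not overlap for 5 of 9 member probes, against 37.2% of all tested probes. Mc2r, for example, had a mean of 0.28 in null/WT and -0.14 in WT/null.

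**Figure D3:**
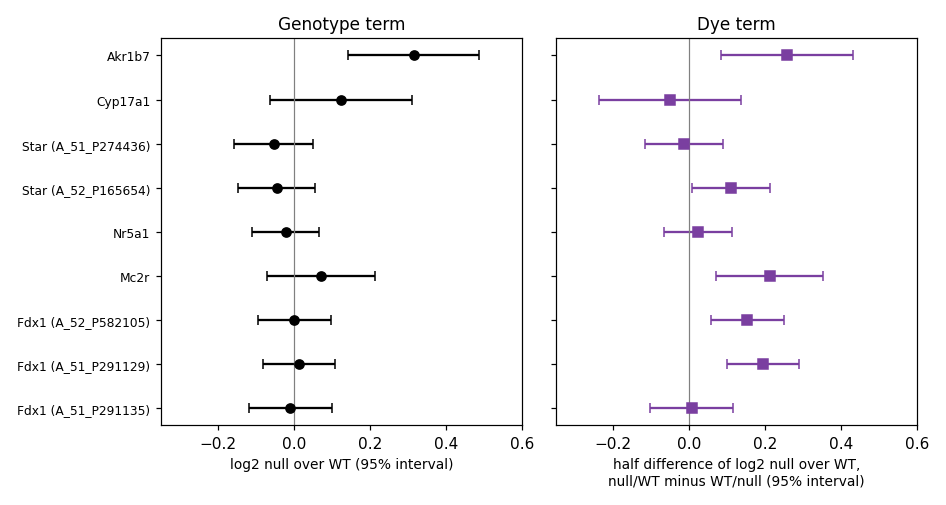
Fitted genotype term (left panel, black circles) and dye term (right panel, purple squares) of the 9 tested probes on the log2 scale, with 95% intervals not adjusted for the number of probes. The genotype interval lies off 0 for Akr1b7 alone, from 0.14 to 0.49, and the dye interval lies above 0 for Akr1b7, Mc2r, 2 Fdx1 probes and 1 Star probe.

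Akr1b7 lies on chromosome 6 beside Akr1b3, Akr1b8 and Akr1b10, genes of related reductases. These and Akr1a1 were detected in all 24 channels, with fitted values from -0.08 to -0.02 by the brightest probe and 0 of 4 past the threshold. Akr1a1, the aldehyde reductase gene, stood at -0.08 ± 0.05. Akr1b3, the aldose reductase gene, stood at -0.06 ± 0.04, with -0.07, -0.09 and -0.02 on slides 1, 2 and 3. Its other probe stood at -0.09 ± 0.05, with -0.10, -0.0028 and -0.17 on those slides. Akr1b8 stood at -0.03 ± 0.04 and Akr1b10 at -0.02 ± 0.04. The difference between Akr1b7 and these genes was not tested.

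Ren1, the renin gene, stood at 0.86 ± 0.26 (limma adjusted p = 0.605) by its brightest probe, with 0.38, 0.30 and 1.89 on slides 1, 2 and 3. Its other probe stood at 0.71 ± 0.20, with 0.21, 0.42 and 1.50. Neither passed, and both were above 0 in 6 of 6 replicates. Like Akr1b7, Ren1 was highest on slide 3, whose arrays had the widest ratios. Skeletal muscle markers, tested for 5 of 6 genes with 0 past the threshold, were too, with medians of 0.14, 0.48 and 2.16 on slides 1, 2 and 3 and summed signals of 1026 to 3566 over the null replicates and 1063 to 1220 over the WT replicates. Tnnc2, a troponin gene of fast muscle, stood at 1.05 ± 0.32, with 0.24, 0.59 and 2.32 on those slides. Liver markers, tested for 4 of 6 genes with 0 past the threshold, had medians of 0.0046, 0.096 and 0.27 and summed signals of 2257 to 6998 over the null replicates and 2230 to 6699 over the WT replicates. The median of these sums was 6469 in null and 2790 in WT, though their ranges overlapped and the fitted values of the 4 genes had a median of only 0.12. Afp, the alpha-fetoprotein gene, stood at 0.48 ± 0.25, with -0.07, 0.05 and 1.45 on slides 1, 2 and 3, while Apoa2 was detected in 0 of 24 channels. The part of muscle or liver tissue in the Akr1b7 value was not tested.

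**Figure D4:**
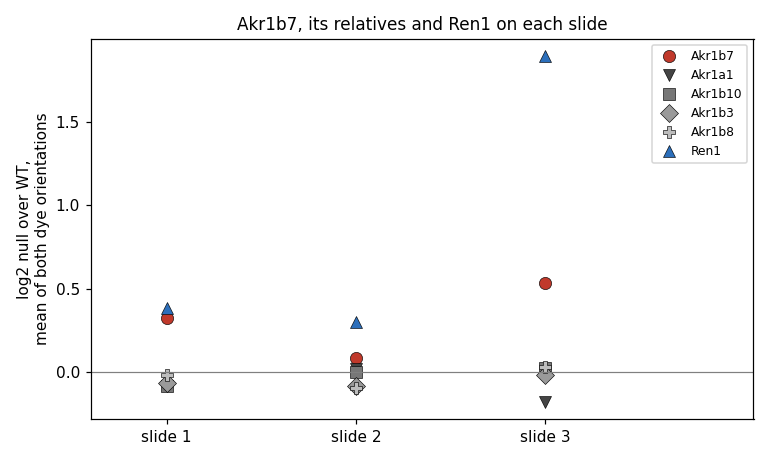
Log2 null over WT averaged over both dye orientations (y axis) on each of the 3 slides for Akr1b7 (red circles), 4 related reductase genes (grey symbols) and Ren1 (blue triangles). Akr1b7 stands at 0.32, 0.08 and 0.53 and Ren1 at 0.38, 0.30 and 1.89 on slides 1, 2 and 3, and the relatives stay between -0.18 and 0.03.

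The 5 genes most like Akr1b7, by root mean square difference of the log2 ratio over 6 replicates, were Casp12 (0.13), S100a4 (0.14), Sfrp4 (0.14), Esrrg (0.15) and Sgk3 (0.16). Their fitted values ran from 0.18 for Sgk3 to 0.31 for Sfrp4 and 0 passed. These genes were picked on the same 6 ratios, so what they share with Akr1b7 across replicates is set by the choice.

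Among 15 other steroid enzymes and electron donors, 10 were tested, 0 rose and 0 fell, and 4 were above and 6 below 0 with a median of -0.03. Akr1c18, whose enzyme inactivates progesterone, stood at -0.13 ± 0.06. Hsd11b2, whose enzyme inactivates glucocorticoids in the collecting duct, stood at -0.14 ± 0.07, and H6pd, which supplies the cofactor of the opposing enzyme, at 0.06 ± 0.04. The dimmer H6pd probe stood at 0.005 ± 0.04. Cyp11b2, Cyp19a1 and Hsd17b3 were detected in 0 of 24 channels, Hsd17b1 in 1 WT channel, and Hsd3b6, a relative of Hsd3b1, in 5 null and 5 WT channels.

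All 9 genes of cholesterol supply were tested, 0 rose and 0 fell, and 4 were above and 5 below 0 with a median of -0.00. Soat1, whose enzyme esterifies cholesterol, stood at 0.18 ± 0.05 by its brightest probe and at 0.09 ± 0.04 and -0.08 ± 0.09 by the others. Stard4, a cholesterol carrier gene, stood at -0.09 ± 0.05 by its brightest probe and at 0.38 ± 0.13 and 0.01 ± 0.05 by the others, so its probes disagreed in sign. Tspo, a gene of the outer mitochondrial membrane, stood at 0.09 ± 0.07.

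Of 12 regulators, 8 were tested, 0 rose and 0 fell, and 5 were above and 3 below 0 with a median of 0.05. Gata6, a transcription factor gene of the adrenal and other tissues, stood at 0.17 ± 0.04, with 0.26, 0.13 and 0.11 on slides 1, 2 and 3, and at -0.00 ± 0.05 by a dimmer probe. Crem, a cyclic AMP response factor gene, stood at 0.09 ± 0.05 by its brightest probe, and its other probes ran from -0.07 to 0.06. Prkar1a, a regulatory subunit gene of protein kinase A, stood at -0.39 ± 0.23, with 0.09, -1.32 and 0.05 on slides 1, 2 and 3.

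Of 5 steroid receptor genes 2 were tested and 0 passed. Nr3c1, the glucocorticoid receptor gene, stood at 0.17 ± 0.06 by its brightest probe, with 0.10, 0.04 and 0.36 on slides 1, 2 and 3, and its other probes ran from -0.06 to 0.15. Esr1, an estrogen receptor gene, stood at 0.02 ± 0.05 by its brightest probe and was detected in 0 of 24 channels by its other. The mineralocorticoid receptor gene Nr3c2 was detected in 2 null and 0 WT channels by 1 probe and in 0 by its others, and Pgr in 0 of 24.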

How the data were processed

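The deposited scanner files give median spot and background intensity in both dyes, unnormalised, and also dye-normalised processed intensity with a log10 ratio of red to green, per the file headers (Agilent Feature Extraction 10.5.1.1; the submitters' processing notes name 6.1). The authors' value table holds log10 ratios: set against scanner ratios turned to null over WT, its columns had correlations of 0.998 to 0.999 and slopes of 1.00. Its column medians ran from -0.0223 to 0.00645. Why some of its entries are blank is unknown here. Of its columns, 0 were unmatched.

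Intensities were background-corrected (normexp, offset 50) and loess-normalised within arrays, spots of a probe and the 2 arrays of a replicate were averaged, and signals were scaled by Aquantile. Accessions were matched to RefSeq symbols, which named 25097 of 41174 probes. A limma 3.58.1 model (R 4.3.3) with genotype and dye terms was fitted to 22978 probes, with Benjamini-Hochberg adjustment over all of them at 0.05. The model was also run on simulated data. Replicates were independent there, unlike the slide-sharing replicates here, so that run gives no error rate for these data. Precision rests on 6 replicates, with a median SE of 0.0506.

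Replicates of one number shared a slide and deviated together (correlations 0.587, 0.517 and 0.413), so the replicate block was also fitted. Other alternatives changed the centring, offset, signal source, filter or duplicate handling, or left out replicates, slides or an array. Members and lists were chosen with earlier results of these data known. From each gene list the text names genes past the threshold, otherwise up to 3 detected genes with the smallest p, and beside these Akr1b10 as the nearest neighbour of Akr1b7 and genes that were hardly detected. Marker genes are named without that rule, some after their values were seen.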

Additional observations from a re-analysis of the deposited data

Results flagged for a closer look

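For Cyp17a1, the ratio of WT/null replicate 3, 0.57, lay farther from the other 5 replicates than Dixon's limit allows. Chance marks about 5% of such groups.

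For 2 probes of Fdx1 the null over WT ratio differed between dye orientations by the dye term of the limma fit. The term was 0.19 for A_51_P291129 (limma adjusted p = 0.0216) and 0.15 for A_52_P582105 (limma adjusted p = 0.0465). In both, null/WT was above WT/null on all 3 slides. The third Fdx1 probe had a term of 0.0060.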

How the results depend on the processing

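The count of member probes past the threshold was 0 under each alternative except the random block over 12 arrays, where it was 1 (Akr1b7). Akr1b7 was above 0 under all 18. Over all probes the count of 9 became 4 with the replicate block, 148 with the random block, 5 to 12 with a replicate left out (5 without null/WT replicate 2), 3 or 62 when slide 2 or slide 3 was dropped, and 15 when the array with the widest ratios was. The replicate block changed no call of a member. Median centring gave 6 calls, 5 of them higher in null, against 5 of 9, and moved the median of all tested probes from -0.0098 to 0.14.

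Values near 0 changed sign without passing. Processed signals gave -0.027 and -0.016 for Fdx1 A_51_P291129 and A_52_P582105, 0.055 for Nr5a1 and 0.21 for Star A_52_P165654, and the authors' value table gave -0.027, -0.016, 0.049 and 0.21. Median centring gave 0.18 for Fdx1 A_51_P291135 and 0.19 and 0.20 for the other Fdx1 probes, and no offset gave -0.0010 for A_52_P582105. Dropping slide 3 gave -0.0092, 0.0018 and -0.031 for Fdx1 A_51_P291129, A_51_P291135 and A_52_P582105 and 0.0051 for Nr5a1. Dropping slide 1 gave -0.010 for Mc2r, and dropping slide 2 gave 0.0055 for Fdx1 A_51_P291135. Dropping the array with the widest ratios gave 0.0013 for Fdx1 A_51_P291135 and 0.00046 for Nr5a1. With a replicate left out the 3 Fdx1 probes ran from -0.0020 to 0.038, -0.039 to 0.024 and -0.026 to 0.019, and Nr5a1 from -0.032 to -0.0041. The causes were not tested. For Cyp11a1, Cyp21a1 and Hsd3b1, signal over background is the limit.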
